A study of Homo sapiens with 6 samples.

Results

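The genes described are 10 that stand at the centre of the epithelial-mesenchymal transition (EMT): the transcription factor genes ZEB1, ZEB2, SNAI1, SNAI2 and TWIST1, the intermediate filament gene VIM (vimentin), and the cadherin genes CDH1, CDH2, CDH3 and CDH11. They were chosen by name, with earlier results of these data known. All 10 of them matched a row among the 25365 of the deposited table. Each was measured in MDA-MB-231 cells, an established human triple-negative breast cancer line of mesenchymal-like shape. RNA was taken 48 h after transfection with 20 nM of siRNA, from 3 libraries of cells given si-NRDE2-2, a single siRNA (Ambion s30064) against NRDE2, and 3 libraries of cells given si-Control (Ambion AM4611). The protein NRDE2 is nuclear and partners the helicase MTREX, and the libraries show the mRNA profile after its knockdown. All libraries came from one cell line and each group received one siRNA, so an effect of NRDE2 loss and a sequence-specific effect of that siRNA cannot be told apart. Separate cultures are not stated for the replicates. The p-values therefore measure the spread between these libraries, which may be technical.

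In EMT, epithelial cells lose the adherens junctions that join them to their neighbours and take on a motile, mesenchymal form. SNAI, ZEB and TWIST factors bind E-box sequences in DNA, and SNAI and ZEB factors repress epithelial genes, the classic target being CDH1, which encodes E-cadherin. Vimentin filaments and a switch to N-cadherin (CDH2) or cadherin-11 (CDH11) are the usual marks of the mesenchymal state. The microRNAs of the miR-200 family repress ZEB1 and ZEB2, and ZEB factors in turn repress the miR-200 genes, a double-negative loop.

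The seeds of this family, and their matches in the ZEB transcripts, are shown because they are the best-known sequence feature that separates the ZEB genes from the other members. The mature sequences are RefSeq's (GRCh38.p14), with bases 2 to 8, the seed, in capitals. miR-429 had no entry.
hsa-miR-200b-3p: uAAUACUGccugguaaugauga
hsa-miR-200c-3p: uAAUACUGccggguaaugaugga
hsa-miR-200a-3p: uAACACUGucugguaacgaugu
hsa-miR-141-3p: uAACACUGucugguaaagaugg
The first pair shares the seed AAUACUG and the second pair AACACUG. In the 3′ untranslated region (UTR) of 1 GENCODE 29 transcript per gene, the match to the first seed, CAGTATT, occurred 5 times in ZEB1 and 5 times in ZEB2, and the match to the second, CAGTGTT, 3 times in ZEB1 and 4 times in ZEB2. At least 1 CAGTATT lay in 17.9% and at least 1 CAGTGTT in 19.4% of the 10576 tested genes with a 3′ UTR. Counting both matches, 0.67% of those genes had 5 or more. SNAI2 and CDH11 had 1 CAGTATT each, and SNAI1, TWIST1, VIM, CDH1, CDH2 and CDH3 had 0 of either match. Of the matches, 4 are printed with the match in capitals, at positions 369 and 1533 of the ZEB1 UTR and 455 and 734 of the ZEB2 UTR.
ZEB1 CAGTATT site: tgttttatcttatCAGTATTat
ZEB1 CAGTGTT site: agatttgatttaaCAGTGTTat
ZEB2 CAGTATT site: cactacaatgcatCAGTATTat
ZEB2 CAGTGTT site: tgccatccttgtaCAGTGTTaa
These libraries were poly(A)-selected and do not measure mature microRNAs. The rows of the miR-200 hairpins MIR200C, MIR141 and MIR429, and those of MIR205 and its host MIR205HG, were listed at 0 in all 6 libraries. MIR200A and MIR200B were listed at 0 in all 3 si-NRDE2-2 libraries and, among the si-Control libraries, had 68.3 and 22.8 FPKM in replicate 2 and 0 in replicates 1 and 3. These values come from 1 library and from short rows, where few fragments can give a high FPKM. They were not tested, and no change with si-NRDE2-2 is read from them.

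Values are the FPKM that the authors deposited, that is, fragments per unit of transcript length and of depth. Because of the length scaling levels can be set side by side between genes, other than the short rows of small RNAs. Estimated from the steps between low values, depth was about 41900000 to 53200000 fragments in si-NRDE2-2 libraries and 50500000 to 57700000 fragments in si-Control libraries. NRDE2 itself had 0.230, 0.234 and 0.229 FPKM in si-NRDE2-2 replicates 1, 2 and 3, against 4.39, 4.45 and 3.80 FPKM in si-Control replicates, so each library matched its label. Of the markers of the line, CD44 averaged 182 ± 1.79 FPKM with si-NRDE2-2 and 152 ± 4.86 FPKM with si-Control and EGFR averaged 36.0 ± 2.44 FPKM with si-NRDE2-2 and 36.0 ± 3.69 FPKM with si-Control (SD, n = 3 each). The hormone receptor genes ESR1 and PGR lay between 0 and 0.00441 FPKM. The epithelial marker EPCAM was present at 7.43 to 8.04 FPKM in si-NRDE2-2 and 7.77 to 8.45 FPKM in si-Control libraries, and ERBB2 averaged 10.6 ± 0.395 FPKM with si-NRDE2-2 and 12.8 ± 0.166 FPKM with si-Control (SD, n = 3 each). Some epithelial transcripts were far higher. KRT19, named after its values were seen, averaged 382 ± 8.88 FPKM with si-NRDE2-2 and 375 ± 32.9 FPKM with si-Control (SD, n = 3 each). Of 27 listed epithelial target genes of EMT factors, 18 had at least 1 FPKM in all libraries and 5 were below 1 FPKM in all. Of the markers of other cell types, PTPRC and CD3E (leukocytes), VWF (endothelium) and DCN (fibroblasts) were at most 0.0618 FPKM in any library, while PECAM1 averaged 1.097 ± 0.121 FPKM with si-NRDE2-2 and 0.616 ± 0.0832 FPKM with si-Control, below the filter for testing. Others were well above 0: the lysosomal and macrophage marker CD68 averaged 74.7 ± 1.95 FPKM with si-NRDE2-2 and 64.0 ± 2.85 FPKM with si-Control, the stromal marker PDGFRB 1.504 ± 0.0942 FPKM with si-NRDE2-2 and 1.17 ± 0.0524 FPKM with si-Control, and ACTA2 1.67 ± 0.376 FPKM with si-NRDE2-2 and 2.31 ± 0.286 FPKM with si-Control (SD, n = 3 each). Of 19 genes in the list of subtype and cell type markers 7 were tested with limma, of which CD44, CD68 and PDGFRB rose and ERBB2 and ACTA2 fell (71.4% called, beside 44% of all genes tested). CD44, PDGFRB and ACTA2 are also in the list of mesenchymal genes described below, so the shares called in these lists are not independent. The part of other cells in the results was not tested.

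**Figure D1:**
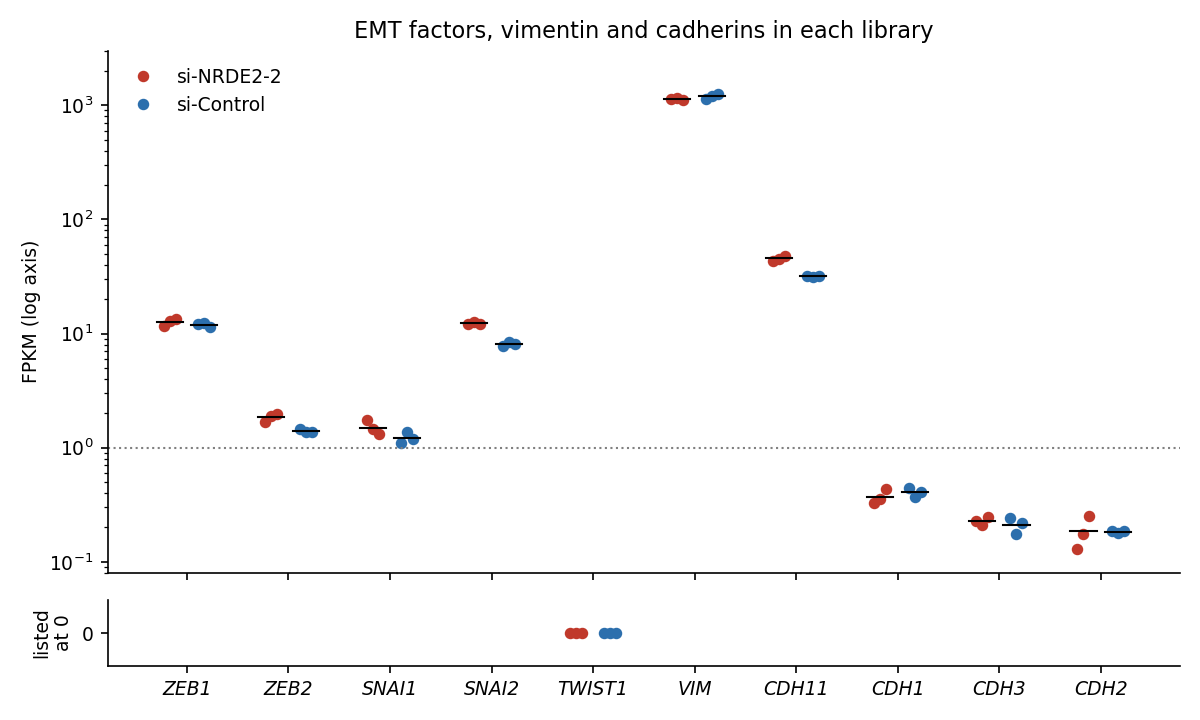
FPKM of each member in each library on a log axis (1 point per library, 3 per group; short bars are group means; the dotted line marks 1 FPKM, the filter for testing; the lower strip holds a gene listed at 0). The si-NRDE2-2 points of SNAI2, CDH11 and ZEB2 all lie above the si-Control points, and CDH1, CDH2 and CDH3 stay under 1 FPKM in both groups.

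Levels of the members spanned a wide range. VIM was far above the rest, at rank 42 to 44 of all rows other than small RNAs in si-NRDE2-2 libraries and rank 38 to 44 in si-Control libraries. CDH11, ZEB1 and SNAI2 came next, then ZEB2 and SNAI1 at between 1 and 2 FPKM. CDH1, CDH2 and CDH3 were under 0.5 FPKM in every library, and TWIST1 was listed at 0 throughout. Neighbours in this order that overlapped in both groups were ZEB2 and SNAI1, and CDH3 and CDH2. ZEB1 and SNAI2 overlapped in si-NRDE2-2 libraries, whereas every si-Control library had ZEB1 above SNAI2.

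A gene was tested if 3 or more libraries had 1 FPKM or more, with limma on log2(FPKM + 0.1), and an adjusted p under 0.05 (Benjamini-Hochberg over all 11789 genes tested) was called. Of the 10 members 6 passed this filter, each with at least 1 FPKM in all 6 libraries. SNAI2, CDH11 and ZEB2 rose, 0 fell, and ZEB1, SNAI1 and VIM were not called. In bulk RNA a change in the share of cells that express a gene and a change in RNA per cell cannot be told apart. Over all genes tested 44% were called, 20.9% as higher and 23% as lower, so 3 called members of 6 is close to that background. The same 3 members were those whose groups did not overlap, all higher with si-NRDE2-2, where 53.5% of all tested genes did not overlap and 25.2% did so as higher. SNAI2 and CDH11 were at least 1.4 times higher in group means, as were 4.93% of all tested genes. This cutoff was not among the planned tests and lies just under the CDH11 ratio of 1.44, so the share is a description and no independent evidence.

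**Figure D2:**
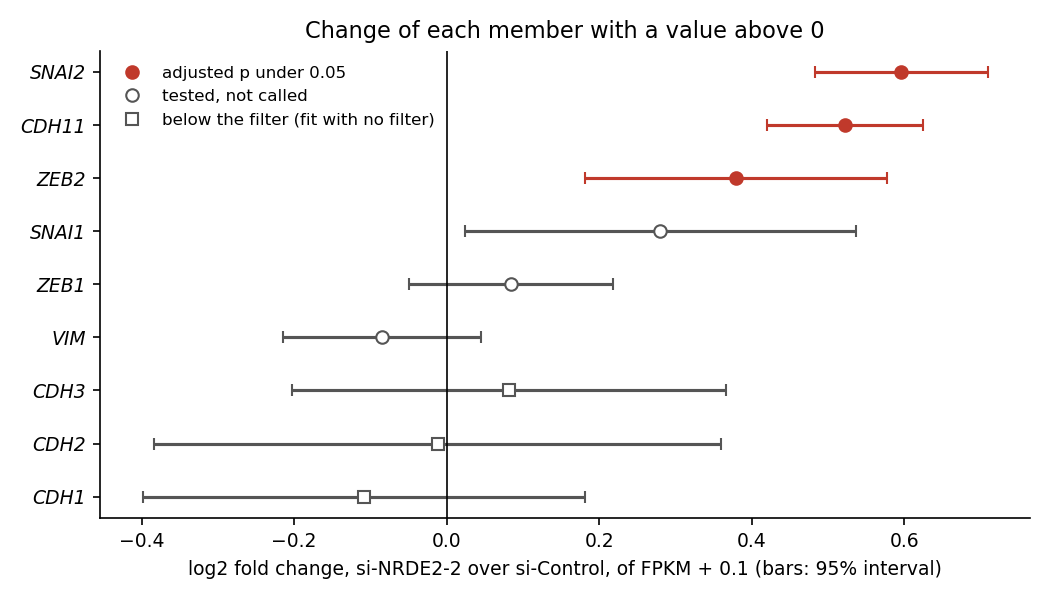
log2 fold change of si-NRDE2-2 over si-Control for the members above 0, with 95% intervals (limma; circles, genes past the filter; squares, genes under it, from the fit with no filter; filled, adjusted p under 0.05). SNAI2, CDH11 and ZEB2 are filled and lie to the right of 0, at 0.60, 0.52 and 0.38.

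Of the 6 tested members, SNAI2 had the largest log2 fold change. SNAI2, which encodes the zinc finger repressor SLUG, had 12.1, 12.7 and 12.2 FPKM in si-NRDE2-2 replicates 1, 2 and 3, against 7.82, 8.47 and 8.07 FPKM in si-Control replicates. The lowest si-NRDE2-2 library lay well above the highest si-Control library, and the spread within each group was small. The mean was 12.3 ± 0.336 FPKM with si-NRDE2-2 and 8.12 ± 0.328 FPKM with si-Control (SD, n = 3 each), 1.52 times higher with si-NRDE2-2, and limma gave a log2 fold change of 0.60 ± 0.05 (SE) with adjusted p = 6.3e-06. Of all tested genes 2.99% had a higher fold change.

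ZEB2, a zinc finger and homeodomain repressor also called SIP1, rose at a lower level. It had 1.67, 1.91 and 1.98 FPKM in si-NRDE2-2 libraries, against 1.47, 1.36 and 1.37 FPKM in si-Control libraries. The groups did not overlap, though the nearest libraries were close. Means were 1.85 ± 0.164 FPKM with si-NRDE2-2 and 1.398 ± 0.0592 FPKM with si-Control (SD, n = 3 each), with a log2 fold change of 0.38 ± 0.09 (SE, limma, adjusted p = 0.0057). At this level between 792 and 968 fragments were estimated to stand behind the value in si-NRDE2-2 libraries and between 660 and 771 in si-Control libraries.

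ZEB1, its paralogue and the more abundant of the pair, had 11.7, 12.9 and 13.5 FPKM in si-NRDE2-2 libraries, against 12.2, 12.4 and 11.3 FPKM in si-Control libraries. The groups overlapped, with a log2 fold change of 0.08 ± 0.06 (limma, adjusted p = 0.287) and a 95% interval of -0.05 to 0.22. It was 0.14 without si-NRDE2-2 replicate 1 (limma, adjusted p = 0.0606), 0.04 without si-NRDE2-2 replicate 3 and 0.05 without si-Control replicate 3. The ratio of ZEB2 to ZEB1 was 0.142, 0.147 and 0.147 in si-NRDE2-2 libraries and 0.120, 0.109 and 0.121 in si-Control libraries. Every si-NRDE2-2 library was above every si-Control library, which gives the smallest p possible in an exact permutation test of 3 against 3 (two-sided p = 0.1, one of 4 ratios examined). As ZEB2 alone was without overlap, this separation is not independent of its rise. The divergent non-coding transcript ZEB1-AS1 averaged 3.22 ± 0.294 FPKM with si-NRDE2-2 and 2.69 ± 0.185 FPKM with si-Control and rose (log2 fold change 0.25 ± 0.08, limma, adjusted p = 0.0301). No source used here gives the strand setting of the authors' counting, so reads of ZEB1 and ZEB1-AS1, or of VIM and VIM-AS1, cannot be told apart where the genes overlap.

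SNAI1, which encodes the repressor SNAIL and has a short-lived mRNA and protein, was low. It had 1.74, 1.46 and 1.31 FPKM in si-NRDE2-2 libraries, against 1.104, 1.36 and 1.18 FPKM in si-Control libraries. The lowest si-NRDE2-2 library was below the highest si-Control library. Its log2 fold change was 0.28 ± 0.12 (SE, limma, adjusted p = 0.0729), with a 95% interval of 0.02 to 0.54 before adjustment. Between 92 and 153 fragments were estimated behind it in si-NRDE2-2 libraries and between 100 and 132 in si-Control libraries. Without si-NRDE2-2 replicate 3, the shallowest library and the one of its group with the lowest SNAI1, SNAI1 was called (log2 fold change 0.37, limma, adjusted p = 0.032). Without si-NRDE2-2 replicate 1, the one with the highest, the log2 fold change was 0.18 (limma, adjusted p = 0.241).

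SNAI2 and SNAI1 therefore stood at a ratio of 6.95, 8.70 and 9.35 in si-NRDE2-2 libraries and 7.09, 6.23 and 6.84 in si-Control libraries. The groups overlapped, and the exact permutation test gave a two-sided p = 0.2 where 0.1 is the smallest possible. The ratio of SNAI2 to ZEB1 was 1.03, 0.982 and 0.906 in si-NRDE2-2 libraries and 0.642, 0.682 and 0.712 in si-Control libraries, without overlap (exact permutation, two-sided p = 0.1). Since SNAI2 alone was without overlap, its ratio to ZEB1 is no independent support. Summed over the 5 factors, the level was 27.2, 29.003 and 28.97 FPKM in si-NRDE2-2 libraries and 22.6, 23.6 and 22.0 FPKM in si-Control libraries.

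TWIST1, a basic helix-loop-helix factor of the mesoderm and neural crest, was listed at 0 in all 6 libraries and is one of 5825 such rows of the table. An exact 0 in this table can be a failed estimate, since the ribosomal protein gene RPS18 and the histone methyltransferase gene EHMT2, both used by most cells, were also at 0. Its relative TWIST2 was also listed at 0 in all 6 libraries.

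Of the 10 members ZEB1, ZEB2, VIM and CDH2 had a promoter entry in RefSeq (250 bases before to 50 after a start site); SNAI1, SNAI2, TWIST1, CDH1, CDH3 and CDH11 are named only. The windows were searched for the E-box CANNTG, and for CACCTG or its reverse complement CAGGTG, the form that SNAI and ZEB factors prefer. CANNTG lay in 68.7% of 35116 promoter windows of this length and the narrower form in 20.6%. The ZEB2 window held 1 CANNTG and 0 of the narrower form, and the VIM window held 0 of either. The windows of CDH2 start sites 1 and 2 held 0 and 1 CANNTG, and 0 of the narrower form. ZEB1 had 7 start sites. Start site 3 held 3 CACCTG or CAGGTG, start site 1 held 1, and start sites 2, 4, 5, 6 and 7 held 0. The window of ZEB1 start site 3, picked for its matches and not typical of that gene, and the ZEB2 window are printed with each CANNTG in capitals.
ZEB1 promoter (GRCh38.p14, chr10:31318966-31319265, plus strand): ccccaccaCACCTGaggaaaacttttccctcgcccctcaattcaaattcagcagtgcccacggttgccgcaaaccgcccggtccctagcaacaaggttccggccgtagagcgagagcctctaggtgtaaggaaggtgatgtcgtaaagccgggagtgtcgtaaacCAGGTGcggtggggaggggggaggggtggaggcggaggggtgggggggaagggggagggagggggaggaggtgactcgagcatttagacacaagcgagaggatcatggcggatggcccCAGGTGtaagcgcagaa
ZEB2 promoter (GRCh38.p14, chr2:144520070-144520369, minus strand): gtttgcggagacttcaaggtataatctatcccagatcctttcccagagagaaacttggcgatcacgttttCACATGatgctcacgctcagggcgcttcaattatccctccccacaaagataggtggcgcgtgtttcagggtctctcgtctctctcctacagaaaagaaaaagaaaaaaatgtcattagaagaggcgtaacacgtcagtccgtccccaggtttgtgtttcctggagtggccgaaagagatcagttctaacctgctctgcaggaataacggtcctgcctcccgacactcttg
A match is a description of the letters and not evidence of binding.

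VIM, the type III intermediate filament of mesenchymal cells, was not called. It had 1132, 1148 and 1113 FPKM in si-NRDE2-2 libraries, against 1131, 1210 and 1260 FPKM in si-Control libraries. The groups overlapped in FPKM, si-Control replicate 1 lying among the si-NRDE2-2 libraries. FPKM totals differed, however, from 448986 in si-Control replicate 1 to 486271 in si-Control replicate 3. As a share of its library's total, VIM was 0.241%, 0.247% and 0.241% in si-NRDE2-2 libraries. In si-Control libraries it was 0.252%, 0.264% and 0.259%, without overlap. Means were 1131 ± 17.6 FPKM with si-NRDE2-2 and 1200.1 ± 64.9 FPKM with si-Control (SD, n = 3 each), with a log2 fold change of -0.08 ± 0.06 (SE, limma, adjusted p = 0.268) and a 95% interval of -0.21 to 0.04. With libraries scaled to the same FPKM total it was called lower (-0.09, limma, adjusted p = 0.0372), whereas the log2 fold change was -0.03 with quantile normalization (adjusted p = 0.391, limma) and -0.05 without si-Control replicate 3. VIM alone made up 93.8% ± 0.315 of the summed FPKM of the 10 members with si-NRDE2-2 and 95.6% ± 0.264 with si-Control. That sum includes CDH11 and SNAI2, so the lower share is not independent of their rise. Its antisense transcript VIM-AS1 averaged 6.30 ± 0.0337 FPKM with si-NRDE2-2 and 6.49 ± 0.509 FPKM with si-Control (limma, adjusted p = 0.645).

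Among the cadherins, CDH11 was by far the most abundant, and it rose, as did CDH4 at a lower level. CDH11 encodes cadherin-11, or OB-cadherin, a type II cadherin of osteoblasts and other mesenchymal cells. It had 43.6, 45.3 and 48.2 FPKM in si-NRDE2-2 libraries, against 32.2, 31.1 and 31.9 FPKM in si-Control libraries. The si-Control libraries were tightly grouped and every si-NRDE2-2 library lay above them. Means were 45.7 ± 2.31 FPKM with si-NRDE2-2 and 31.8 ± 0.544 FPKM with si-Control (SD, n = 3 each), 1.44 times higher with si-NRDE2-2 (log2 fold change 0.52 ± 0.05, SE, limma, adjusted p = 8.0e-06). CDH11 relative to VIM was 0.0385, 0.0395 and 0.0433 in si-NRDE2-2 libraries and 0.0285, 0.0258 and 0.0253 in si-Control libraries, without overlap (exact permutation, two-sided p = 0.1, the smallest possible). CDH11 alone was already without overlap, so this ratio adds no independent support.

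CDH1, CDH2 and CDH3 encode the classical E-, N- and P-cadherins, and all were under the filter. CDH1 had 0.326, 0.356 and 0.434 FPKM in si-NRDE2-2 libraries, against 0.445, 0.371 and 0.407 FPKM in si-Control libraries. CDH2 had 0.1302, 0.177 and 0.251 FPKM in si-NRDE2-2 libraries, against 0.187, 0.179 and 0.186 FPKM in si-Control libraries. CDH3, a neighbour of CDH1 on the same chromosome, had 0.228, 0.210 and 0.246 FPKM in si-NRDE2-2 libraries, against 0.240, 0.175 and 0.217 FPKM in si-Control libraries. Groups overlapped for each of these genes, and the exact permutation test gave two-sided p = 0.4 for CDH1, 0.9 for CDH2 and 0.6 for CDH3. In the fit with no filter, where 25.6% of 19230 genes were called, none of the 3 was called, and their log2 fold changes had 95% intervals of -0.40 to 0.18 for CDH1, -0.38 to 0.36 for CDH2 and -0.20 to 0.37 for CDH3. Estimated fragments per library ran from 29 to 93 with si-NRDE2-2 and from 41 to 120 with si-Control over these genes. Changes within these intervals are not excluded by these libraries.

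Over the 23 rows named CDH with a number, 20 were under 1 FPKM in all libraries. Beside CDH11, those above it were CDH4 and CDH24. CDH4, or R-cadherin, averaged 6.52 ± 0.179 FPKM with si-NRDE2-2 and 5.56 ± 0.191 FPKM with si-Control and rose (log2 fold change 0.23 ± 0.06, limma, adjusted p = 0.0066). CDH24, a type II cadherin like CDH11, averaged 4.99 ± 0.303 FPKM with si-NRDE2-2 and 6.53 ± 0.270 FPKM with si-Control and fell (-0.38 ± 0.06, limma, adjusted p = 6.3e-04). The summed cadherin level was 56.6, 57.7 and 60.6 FPKM in si-NRDE2-2 libraries and 45.6, 44.5 and 44.6 FPKM in si-Control libraries, of which CDH11 made up 78.4% ± 1.24 with si-NRDE2-2 and 70.7% ± 0.775 with si-Control.

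**Figure D3:**
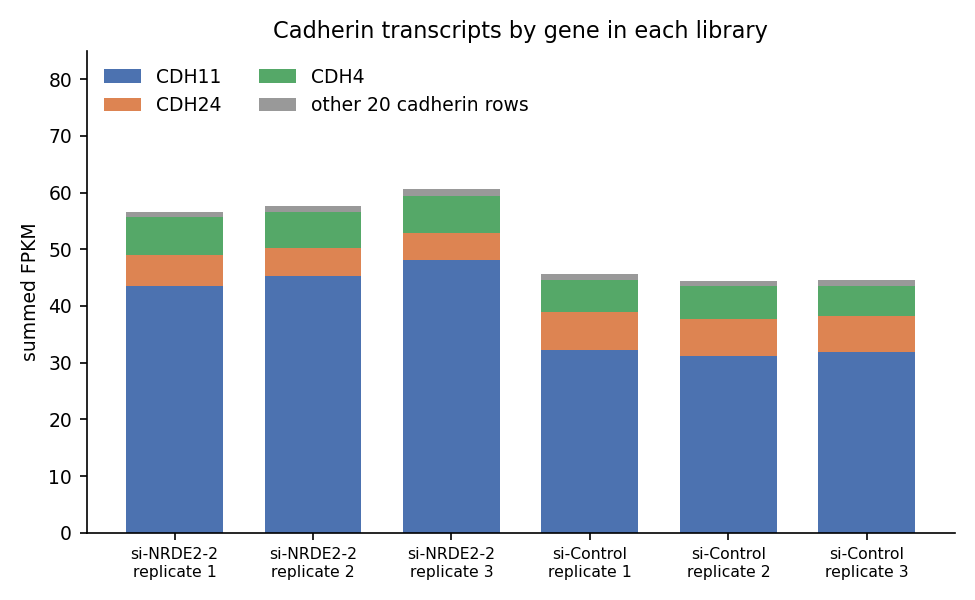
Summed FPKM of the 23 cadherin rows in each library, stacked by gene. CDH11 fills most of every bar, and the si-NRDE2-2 bars reach 56.6 to 60.6 FPKM, above the si-Control bars.

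The main cytoplasmic partners of cadherins were not called. Beta-catenin (CTNNB1), which binds the cadherin tail, averaged 119 ± 2.77 FPKM with si-NRDE2-2 and 112 ± 1.54 FPKM with si-Control (limma, adjusted p = 0.131). alpha-catenin (CTNNA1), which links the complex to actin, averaged 198 ± 2.53 FPKM with si-NRDE2-2 and 196 ± 1.78 FPKM with si-Control (adjusted p = 0.741, limma). For p120-catenin (CTNND1) and plakoglobin (JUP) limma gave log2 fold changes of 0.10 ± 0.05 and -0.12 ± 0.05 (adjusted p = 0.0881 and 0.0531). The groups overlapped for CTNNA1 but not for CTNNB1 and CTNND1, both higher with si-NRDE2-2, or for JUP, lower. Over all tested genes, 53.5% did not overlap. Of 13 tested genes of catenins and cadherin processing 4 rose, 1 fell and 8 were not called (38.5% called, beside 44% of all genes tested), with a median log2 change of 0.09 beside -0.02 over all genes. The sheddase gene ADAM10, whose product cleaves E- and N-cadherin, averaged 58.4 ± 3.79 FPKM with si-NRDE2-2 and 44.0 ± 0.898 FPKM with si-Control (0.40 ± 0.05, adjusted p = 1.0e-04, limma). Others that rose included CTNNAL1 and the convertase gene FURIN, and ADAM15, named after its values were seen, was the one that fell.

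SNAI and ZEB factors repress through recruited enzymes. The co-repressor genes listed here were chosen with earlier results of these data known, so their share called is no independent evidence. Of 18 tested co-repressor genes 4 rose, 9 fell and 5 were not called (72.2% called, beside 44% of all genes tested, of which 20.9% were higher and 23% lower), with a median log2 change of -0.13 beside -0.02 over all genes. The deacetylase gene HDAC1 averaged 37.6 ± 1.30 FPKM with si-NRDE2-2 and 67.0 ± 1.84 FPKM with si-Control and fell by 0.83 on the log2 scale (SE 0.04, limma, adjusted p = 2.0e-07). The DNA methyltransferase gene DNMT1 fell by 0.61, the lysine demethylase gene KDM1A by 0.22 and the Polycomb gene EED by 0.24. Those that rose, named after their values were seen, were the CtBP genes CTBP1 and CTBP2, through which ZEB factors act, and HDAC2 and SMARCA4. Of 15 tested genes of SNAI1 protein turnover 2 rose, the signalosome gene COPS2 and the ubiquitin ligase gene BTRC, and 0 fell (13.3% called, beside 44% of all genes tested). The number of turnover genes called was 1 without si-NRDE2-2 replicate 3 and 4 without si-Control replicate 3.

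Among 9 tested other EMT factors 4 rose and 1 fell (55.6% called, beside 44% of all genes tested). SOX4 averaged 5.75 ± 0.598 FPKM with si-NRDE2-2 and 3.51 ± 0.274 FPKM with si-Control (0.70 ± 0.08, limma, adjusted p = 7.3e-05), and ID1, FOXC1 and TCF3 rose by 0.19, 0.21 and 0.14. Of these factors 2 were called without si-NRDE2-2 replicate 2 and 3 without si-Control replicate 2. The AP-1 gene FOSL1, named after its values were seen, fell to 141.3 FPKM with si-NRDE2-2, against 215 FPKM with si-Control. Of 15 genes that guard the epithelial state 9 were under the filter, and of the 6 tested 1 rose and 2 fell (50% called, beside 44% of all genes tested). GRHL2, OVOL2 and ESRP1, which oppose ZEB1 or its splicing programme, averaged 0.0250, 0.0408 and 0.173 FPKM with si-NRDE2-2 and 0.0244, 0.0541 and 0.146 FPKM with si-Control. The splicing regulator gene ESRP2 fell by 0.59 and KLF4 by 0.21, whereas the ETS factor gene EHF rose by 0.49.

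Among 21 tested epithelial targets 3 rose and 8 fell (52.4% called, beside 44% of all genes tested), with a median log2 change of -0.11. OCLN, DSP, LLGL2 and CLDN7, genes of junctions and polarity, had log2 fold changes of -0.61, -0.41, -0.44 and -0.32, and PPL, MARVELD2 and KRT18, named after their values were seen, had 0.72, 0.44 and 0.20. Among 21 tested mesenchymal genes 12 rose and 4 fell (76.2% called, beside 44% of all genes tested, of which 20.9% were higher and 23% lower), with a median log2 change of 0.24 beside -0.02 over all genes. CALD1, an actin-binding protein gene, averaged 40.2 ± 1.47 FPKM with si-NRDE2-2 and 25.8 ± 0.992 FPKM with si-Control (0.64 ± 0.05, limma, adjusted p = 1.9e-06). FN1, COL6A1 and TGFBI also rose, while COL1A1, AXL, ITGA5 and ACTA2, named after their values were seen, fell. The epithelial and mesenchymal lists were chosen with earlier results of these data known, so their shares called are no independent evidence. Of 13 tested filament genes and partners 3 rose and 3 fell (46.2% called, beside 44% of all genes tested), with the vimentin partner nestin (NES) at 0.36 and the linker plectin (PLEC) at -0.35, FLNA at -0.23 and the kinase gene PLK1 at -0.37 on the log2 scale. The others that rose, named after their values were seen, were SYNM and GFAP.

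**Figure D4:**
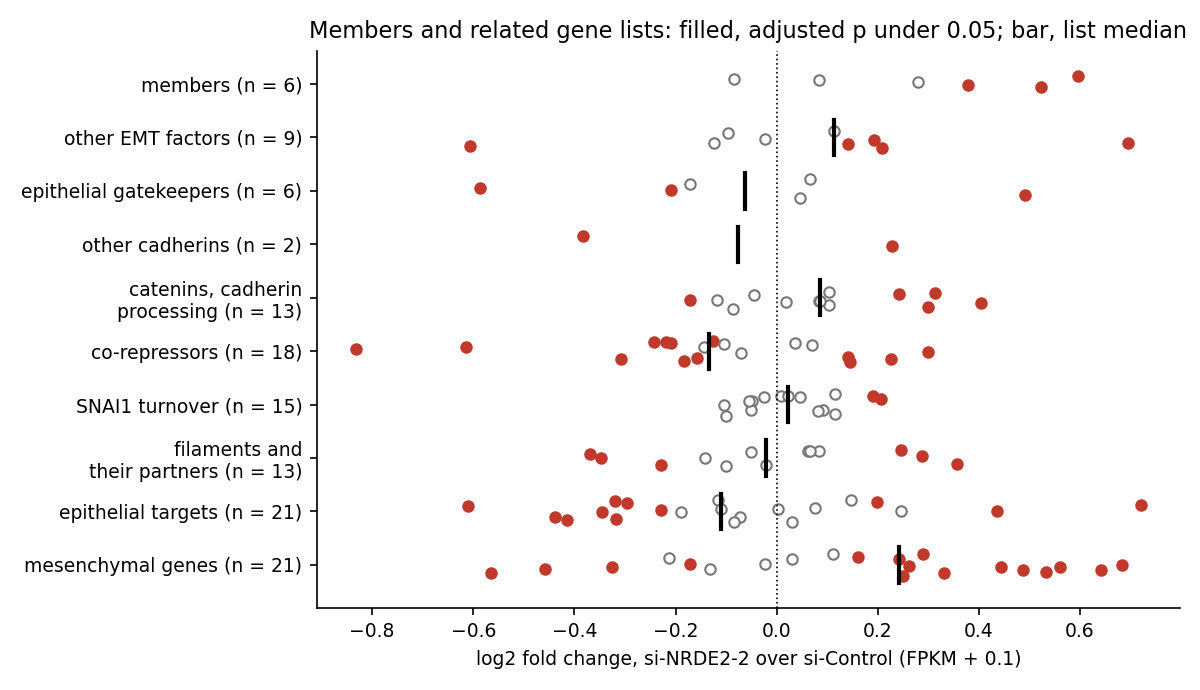
log2 fold changes of the tested members and of the genes of each list (1 point per gene; filled, adjusted p under 0.05; black bars, medians of the lists, none drawn for the members). The lists beside the members hold genes on both sides of 0, with medians from -0.13 for co-repressors to 0.24 for mesenchymal genes.

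The 3′ UTRs of the members were also searched for the motif GACGTA, for the motif GACAGTA and for the motif GACTGTA, which had earlier been chosen on the fold changes of these very libraries, so that their presence is no independent evidence. At least 1 of them lay in 18.2% of the 10576 genes. ZEB2 and SNAI2 held 1 GACAGTA each, and ZEB1 held 1 GACTGTA. CDH11, SNAI1, TWIST1, VIM, CDH1, CDH2 and CDH3 held 0 of the motifs. The UTRs searched ran from 322 bases for VIM to 5370 bases for ZEB2, and a longer UTR has more room for a match. The sites of the ZEB genes, at positions 1893 of the ZEB2 UTR and 1564 of the ZEB1 UTR, are printed with the match in capitals.
ZEB2 GACAGTA site: gaaatgcaGACAGTAgtttaccg
ZEB1 GACTGTA site: ttgccttgGACTGTAgaacagaa
The part of direct siRNA pairing in these changes was not tested.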

How the data were processed

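The authors deposited 1 table of FPKM values per gene and library. The tools and build named in the submitters' processing notes, without their roles, are DESeq2 1.10.1, STAR 2.5.1b and hg19, and the table's annotation, strand setting and FPKM program are not given in the sources used here. Per the labels' protocols, the kit was TruSeq Stranded mRNA. The labels' descriptions gave each column its sample. Another 4 columns, nearly empty, were not used. Values were used as deposited. A gene was kept if 3 or more libraries had 1 FPKM or more, with 159 small RNA rows left out. In R 4.3.3, limma 3.58.1 took log2(FPKM + 0.1) with the group as only term and a trended, robust prior variance, checked on simulated data. Fold changes on this scale understate those of low genes. Depth was estimated from 2946 genes of at most 0.05 mean FPKM, of which 63.4% held whole multiples of their smallest value within 0.02, and scaled with 400 single-transcript genes. The members and gene lists were chosen with earlier results of these data known. Of each list, up to 4 called genes with the smallest adjusted p, those in the majority direction first, are named, and all members, 4 catenins and 3 gatekeepers always. A gene that this rule selects is not reported here. Alternatives covered pseudocount, filter, scaling, variance prior, small RNAs, replicate block and single libraries left out. RefSeq and GENCODE 29 are of GRCh38, so no coordinates of the table are given.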

Additional observations from a re-analysis of the deposited data

How the results depend on the processing

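SNAI2, CDH11 and ZEB2 stayed higher with an adjusted p under 0.05 (limma) in every alternative in which they were tested. ZEB2 and SNAI1 were not tested with a mean FPKM of at least 5. Log2 fold changes ran from 0.55 to 0.63 for SNAI2, from 0.48 to 0.56 for CDH11 and from 0.25 to 0.45 for ZEB2. ZEB1 was not called in any alternative, its log2 fold change being 0.04 to 0.14. VIM was called with libraries scaled to the same FPKM total (log2 fold change -0.0888, adjusted p = 0.0372) and in no other alternative, its log2 fold change being -0.13 to -0.03 over all of them. SNAI1 was called without si-NRDE2-2 replicate 3 only, its log2 fold change being 0.18 to 0.37 when single libraries were left out. The number of genes called was between 3877 and 5444 when single libraries were left out. The sign of the small differences of CDH2 and CDH3 changed when single libraries were left out (-0.17 to 0.13 and -0.0039 to 0.15), so no direction is given for them. Replicate numbers did not pair the libraries: the correlations of same-numbered deviations were -0.12, 0.11 and -0.12. For differently numbered libraries they ran from -0.11 to 0.17, the highest for si-NRDE2-2 replicate 1 with si-Control replicate 3. Another pairing was not tested. With the replicate block as a term for the same-numbered pairing 2254 genes were higher and 2432 lower, and 3 members were called. Over the gene lists, 9 alternative counts of called genes moved by more than 1.5 times and 151 did not. CDH1, CDH2, CDH3 and SNAI1 rest on at most 153 estimated fragments in any library, and counting error was not separated from the spread between libraries.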
